A study of Mus musculus with 126 samples.

Results

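The constitutive proteasome subunit genes are the genes for the core and regulatory subunits of the proteasome that most cells carry. They were taken as the rows named Psma, Psmb, Psmc or Psmd followed by a number, without the immunoproteasome genes Psmb8, Psmb9 and Psmb10, with a mean of at least 1 FPKM in at least 1 of the 7 conditions. FPKM counts fragments relative to transcript length and to the mapped fragments of a library. Of 36 such rows, 34 met the rule, out of 24883 rows in all. Psmd9 was the lowest gene inside the rule, with a highest condition mean of 8.00 deposited FPKM. Psma8 (0.00372) and Psmb11 (0.00374) lay outside it. All 34 genes passed the filter on low values: 7 for alpha and 7 for beta subunits of the 20S core, 6 for ATPases and 14 for non-ATPase proteins of the 19S cap.

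Mouse colon RNA was sequenced in 7 conditions of 18 libraries. Colons were taken every 4 h from ZT0 to ZT20 (zeitgeber time, ZT, counts hours from lights on), with 3 libraries per time. Wild type mice, gut-specific Bmal1 knock out mice and mice labelled MR knock out, for the mineralocorticoid receptor, had normal chow at all times. The knock out mice were 8 to 12 weeks old; the age of the wild type mice, the light schedule of these 3 groups and the promoter that drove the gut-specific deletion do not appear in the labels. The other 4 conditions were 8-week-old male C57BL/6 mice under 12 h light and 12 h dark, fed a low salt or a high salt diet only at night or only by day; they carried no deletion. Because the colon was measured as bulk RNA, fewer cells of a type and less RNA per cell cannot be told apart.

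The 26S proteasome degrades proteins that carry ubiquitin chains. Its 20S core is a barrel of alpha rings that gate the entrance and beta rings that hold the protease sites. The 19S cap recognises ubiquitin, removes it, and unfolds the substrate with a ring of ATPases. Subunits are needed in fixed proportions, and their genes are known to share a transcriptional activator, NRF1, encoded by Nfe2l1, which binds antioxidant response elements in their promoters. BMAL1, encoded by Arntl, is a core transcription factor of the circadian clock.

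Values below are FPKM divided by a scale factor for each library, the median ratio over 6966 rows, and differences are on the scale of log2(rescaled FPKM + 0.5). Scale factors ran from 0.297 to 1.48. In all, 14 libraries had a factor under 0.6: 9 of Bmal1 knock out mice, which include all 3 at ZT12 and all 3 at ZT16, and 5 of high salt night fed mice, which include all 3 at ZT8. In 1 wild type library of ZT8 the median deviation of the members from their own means in the condition was 0.36. There 29 of 34 lay above their condition's median, and the library's length score was the lowest of its condition at -0.17. The length score is the slope of a library's log2 deviations on log2 transcript length, so a low score means that short transcripts read higher. Counts of members that moved by over 1.5 times without the libraries of low scale factor are given with and without them. Values of single genes include them unless stated. Fits without them modelled time as a cosine, and in Bmal1 knock out colon had no library at ZT12 or ZT16. The labels were checked on the deleted genes: Arntl had 4.41 FPKM in Bmal1 knock out and 9.32 in wild type colon, and Nr3c2, which encodes the mineralocorticoid receptor, 3.05 in MR knock out and 15.1 in wild type colon. The epithelial genes Epcam and Krt8 were high in each condition, with lowest condition means of 348.5 and 2320 FPKM. Of the 9 genes of the epithelial list, 2 (Krt8 and Krt20) had a higher and 7 a lower mean in Bmal1 knock out than in wild type colon, Epcam at 348.5 against 504.7 FPKM and Slc26a3, a chloride exchanger of surface cells, at 59.9 against 217; in MR knock out colon 5 were higher and 4 lower. The part of this list in the results was not tested. The summed level of the smooth muscle list stayed at or below 3.58 FPKM and that of the leukocyte list at or below 13.3 FPKM in every library.

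To show where NRF1 could bind, the 250 bases before the annotated start were searched for the antioxidant response element core TGACNNNGC on both strands, with RefSeq promoters on GRCm38.p6. A window was present for 28 of the 34 genes. Psmb1, Psmb2, Psmb7, Psmc3, Psmd3 and Psmd7 had none. The core was found in 5 of 28 (17.9%): Psmb5, Psmb6, Psmc6, Psmd9 and Psmd12. It was found in 10.2% of all 32851 windows. The clock motif CACGTG, an E-box, was present for 2 genes, Psma4 and Psmd9 (7.14%, against 6.02% of all windows), and TTANGTAA, a D-box, for none of the 28 (2.06% of all windows). CCAAT was found for 11 (39.3%, against 33.9%), and the ETS motif ACTTCCGG for 4 (14.3%, against 2.88%). Psmd5, the gene with the most frequent rhythm, had no match to any of these 5 motifs. A match describes letters in a window and is not a measured binding site. Shown are the windows of the catalytic genes Psmb5 (chr14:54617996-54618245, minus strand) and Psmb6 (chr11:70525107-70525356, plus strand), with the antioxidant core in capitals, and of Psmd4 (chr3:95042615-95042864, minus strand), the gene with the largest rhythm, with CCAAT in capitals as read on the opposite strand. The capitals begin 47, 9 and 95 bases before the start.
Psmb5: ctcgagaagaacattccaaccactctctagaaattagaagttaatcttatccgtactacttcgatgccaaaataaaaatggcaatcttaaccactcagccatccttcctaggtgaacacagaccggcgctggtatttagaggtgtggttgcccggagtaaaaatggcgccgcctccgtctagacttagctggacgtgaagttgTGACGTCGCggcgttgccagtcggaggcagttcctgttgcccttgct
Psmb6: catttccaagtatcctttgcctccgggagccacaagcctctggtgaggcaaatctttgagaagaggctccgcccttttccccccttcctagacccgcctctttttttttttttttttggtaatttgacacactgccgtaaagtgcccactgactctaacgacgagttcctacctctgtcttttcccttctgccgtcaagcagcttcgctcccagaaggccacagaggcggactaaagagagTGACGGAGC
Psmd4: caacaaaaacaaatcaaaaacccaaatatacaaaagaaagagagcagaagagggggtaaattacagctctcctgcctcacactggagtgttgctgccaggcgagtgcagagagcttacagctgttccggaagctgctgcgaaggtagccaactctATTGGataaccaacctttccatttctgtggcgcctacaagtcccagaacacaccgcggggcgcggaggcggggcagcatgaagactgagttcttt

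In wild type colon the core genes were the most abundant per length. The 7 beta genes had a median of 87.6 FPKM, from Psmb7 (76.2) to Psmb4 (137). The 7 alpha genes had a median of 72.1, from Psma5 (54.9) to Psma7 (100.1). The 6 ATPase genes had a median of 46.8, from Psmc2 (32.5) to Psmc3 (61.01), and the 14 non-ATPase genes one of 31.0, from Psmd9 (5.44) to Psmd8 (60.5). In the order of levels, Psmb4 (137 ± 33.2, SD, n = 18 libraries) came before Psmb3 (120 ± 33.2), Psma7 (100.1 ± 12.1), Psma2 (97.8 ± 9.26) and Psmb1 (96.6 ± 17.6). At the low end were Psmd5 (16.2 ± 1.90), Psmd10 (11.9 ± 1.11) and Psmd9 (5.44 ± 0.480), which encode chaperones that assemble the 19S base and leave the finished particle. Neighbours in this order had overlapping ranges, with the exception of Psmd10 and Psmd9. Between conditions the highest mean exceeded the lowest by 1.11 times for Psmd2 up to 2.23 times for Psmb3, with a median of 1.29 times. After rescaling, the lowest mean was that of wild type colon for 28 of 34 genes and the highest that of Bmal1 knock out colon for 27. On FPKM as deposited the order was turned: Bmal1 knock out colon had the lowest mean for 29 genes and the highest for 0, and wild type colon the lowest for 5.

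**Figure D1:**
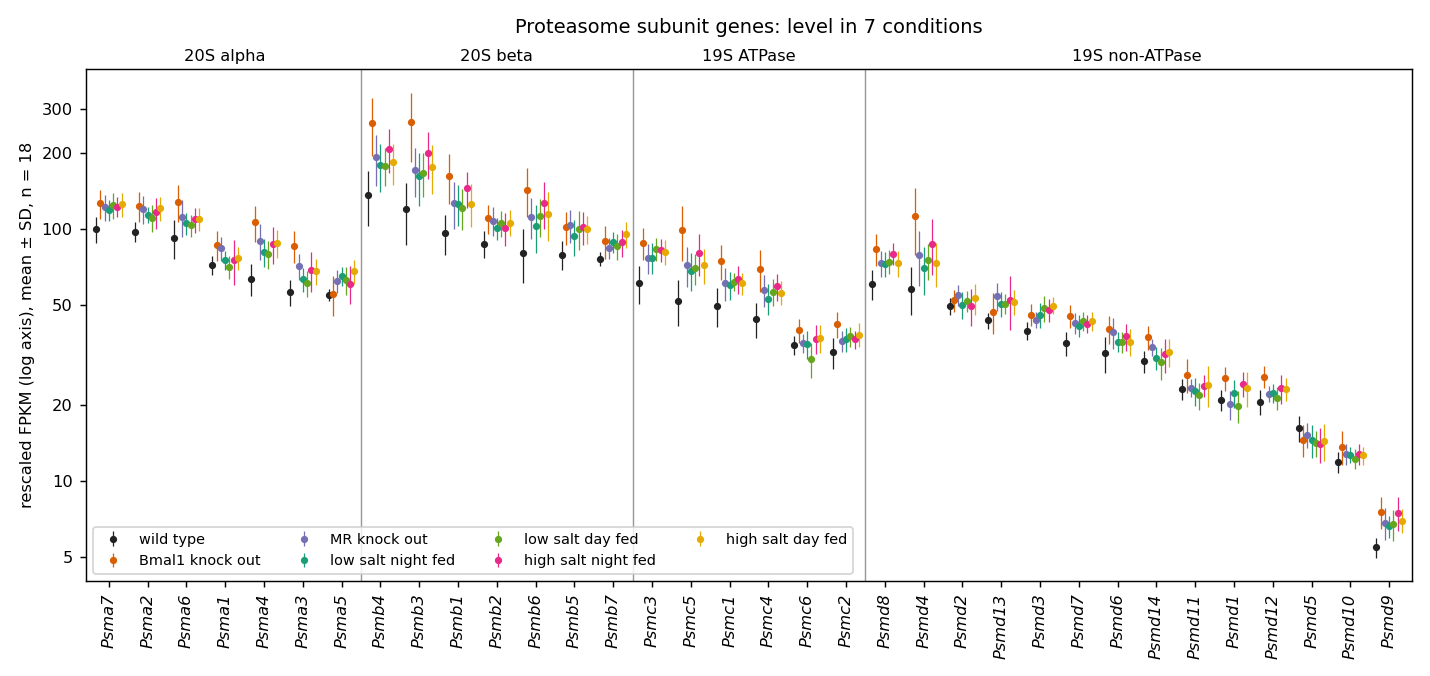
Mean level of each of the 34 genes in 7 conditions (rescaled FPKM, logarithmic axis; points are means, bars are SD, n = 18 libraries per condition). Genes are grouped by subunit class; beta genes lie highest and the assembly chaperone genes Psmd5, Psmd10 and Psmd9 lowest, and Bmal1 knock out colon has the highest mean for 27 genes on this rescaled axis.

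Bmal1 knock out colon was set against wild type colon to ask whether the levels change when this clock gene is deleted in the gut. Relative to other genes, 30 of the 34 members were higher in Bmal1 knock out colon and 1, Psmd5, was lower (limma, Benjamini-Hochberg adjusted p under 0.05). Among all 11377 rows tested, 31.1% were called higher and 49.2% lower. The members' median difference was 0.34, and that of all rows -0.13. All 7 beta genes, all 6 ATPase genes, 6 of 7 alpha genes and 11 of 14 non-ATPase genes were higher. For 27 genes the difference had the same sign at all 6 times, and the ranges of the 18 and 18 libraries separated for 0. The share of all rows was not computed for these counts, so they describe the members alone. Without the libraries of low scale factor, and with times fitted as a cosine, 27 were higher and 1 lower (25.3% and 41.8% of all rows). That fit had no Bmal1 knock out library at ZT12 or ZT16, so its mean over the day is read from a curve across them. Without the wild type library of ZT8 that stands apart 30 were higher and 1 lower.

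Genes of every class were among the largest increases. Psmb3, a non-catalytic beta subunit, rose from 120 ± 33.2 to 267 ± 82.1 FPKM (log2 difference 1.11, SE 0.12, adjusted p = 1.43e-10). Psmb4 rose by 0.92 (SE 0.11, adjusted p = 8.95e-10). Psmc5, an ATPase of the unfolding ring, rose by 0.90 (SE 0.09, adjusted p = 1.25e-10). Psmd4, a ubiquitin receptor of the cap, rose from 58.1 ± 12.5 to 113 ± 33.4 FPKM (0.90, SE 0.11, adjusted p = 3.20e-09). Among alpha genes, Psma4 rose by 0.74 (SE 0.08, adjusted p = 8.41e-11). The 3 catalytic genes differed in size: Psmb6, of the caspase-like site, rose by 0.82 (SE 0.10, adjusted p = 1.32e-09), Psmb5, of the chymotrypsin-like site, by 0.35 (SE 0.07, adjusted p = 1.49e-05), and Psmb7, of the trypsin-like site, by 0.22 (SE 0.05, adjusted p = 0.00013). Psma5 (-0.01), Psmd2 (0.07) and Psmd13 (0.10) did not pass the test. Psmd5 fell by 0.15 (SE 0.04, adjusted p = 0.000653). The sizes and their order changed with the length score as a covariate. Psmb3 was then 0.30, Psmb4 0.19, Psmc5 0.26, Psmd4 0.13 and Psma4 0.26 higher. Psmb6 was 0.15 higher, while Psmb5 (-0.07), Psmb7 (0.07) and Psmd5 (-0.04) did not pass. The highest member in that fit was Psmd1 (0.52).

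The direction depended on the scale. On FPKM as deposited, 0 members were called higher and 27 lower in Bmal1 knock out colon (3.42% and 87.8% of all rows), with a median of -0.55 for the members and -0.89 for all rows, so the members lay above other genes on both scales; as deposited, 3.75% of all calls were higher, against 38.7% after rescaling. Transcript length moved with the result: median length scores were 0.19 in wild type, -0.16 in Bmal1 knock out and 0.02 in MR knock out libraries. With that score as a covariate, 13 members were higher and 0 lower (18.3% and 16.9% of all rows), with a median of 0.10. The share of a library's FPKM in ribosomal RNA rows also differed, with medians of 1.25% and 0.573% with the Bmal1 and the MR deletion, against 0.201% for wild type libraries, and its part in the level differences was not tested. The 17 members with transcripts of up to 1540 bases had a median difference of 0.46 and the 17 longer ones 0.32. Among all tested rows of like length these medians were 0.32 for short and -0.12 for long transcripts.

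**Figure D2:**
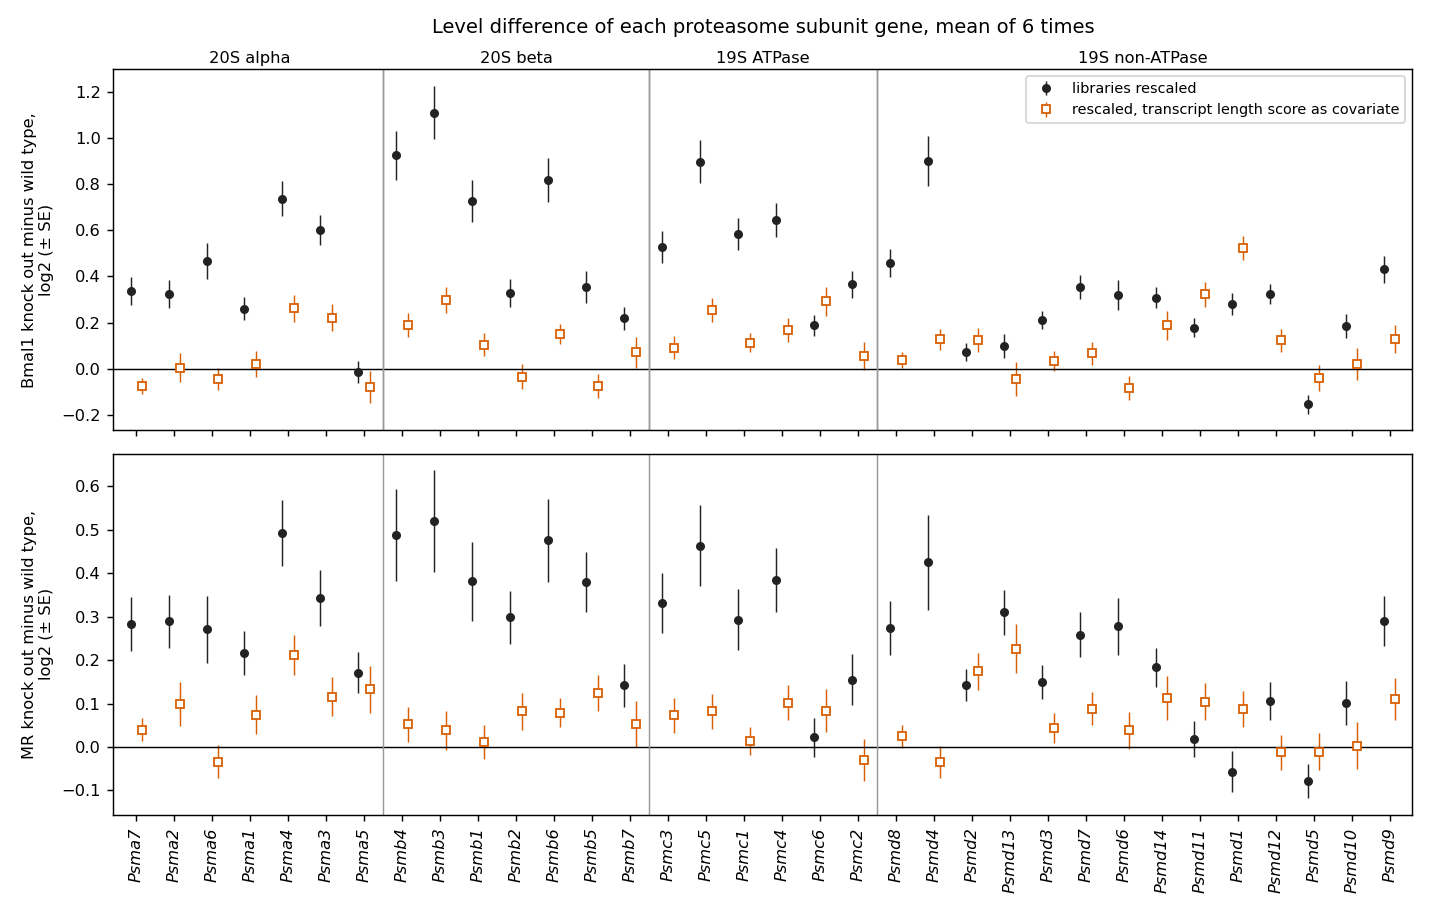
Log2 difference in level from wild type of each gene in Bmal1 knock out and MR knock out colon (filled points, main estimate with SE; open points, with the library length score as a covariate). Filled points lie mostly above 0 for both knock outs, with medians of 0.34 and 0.28, and open points lie nearer 0, with medians of 0.10 and 0.08.

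MR knock out colon, compared with the same wild type libraries, had 29 members higher and 0 lower by limma (24.7% of all rows were called higher and 41.3% lower), while 5 did not pass. Without the wild type library of ZT8 that stands apart 30 were higher. The median difference of the members was 0.28 and that of all rows -0.08. All 7 alpha genes, all 7 beta genes, 5 of 6 ATPase genes and 10 of 14 non-ATPase genes were higher. Psma4 rose by 0.49 (adjusted p = 1.14e-06), Psmb3 by 0.52 (SE 0.12, adjusted p = 0.000256) and Psmc4 by 0.38 (adjusted p = 3.57e-05). Psmd13, a scaffold subunit of the lid, rose by 0.31 (SE 0.05, adjusted p = 4.85e-06). The catalytic genes rose by 0.38 for Psmb5 (adjusted p = 1.67e-05), 0.48 for Psmb6 (adjusted p = 6.86e-05) and 0.14 for Psmb7 (adjusted p = 0.0124). Psmc6, Psmd1, Psmd5, Psmd10 and Psmd11 did not pass. On FPKM as deposited 6 members were higher and 0 lower (8.03% and 40.8% of all rows). The length score covariate gave 7 of 34 and 0, the first a share near the 18.3% of all rows called higher in that fit, where 19.5% were lower. Both knock outs were compared with the same wild type libraries, so their values are not independent.

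Among the feeding groups the levels moved little. Between low salt day fed and low salt night fed colon 0 of 34 members passed in either direction by limma, with 4 at an unadjusted p under 0.05 (1.04% of all rows were called higher and 2.29% lower). Between high salt day fed and high salt night fed colon Psma5 was higher by day (0.17, SE 0.06, adjusted p = 0.0207), and Psmb1 (-0.21, SE 0.07, adjusted p = 0.0213), Psmd4 (-0.24, SE 0.09, adjusted p = 0.0312) and Psmd8 (-0.13, SE 0.04, adjusted p = 0.0264) were lower (14.7% and 12.9% of all rows). With high salt at night, 9 members were higher and 0 lower than with low salt at night (15.4% and 19.6% of all rows): Psmb3 (0.31, adjusted p = 0.00433), Psmb6 (0.30, adjusted p = 0.00249), Psmd4 (0.31, adjusted p = 0.00401), Psmc5 (0.22, adjusted p = 0.00891), Psmb1, Psmb4, Psmc4, Psmd8 and Psmd9. With high salt by day, 5 were higher and 0 lower than with low salt by day (7.79% and 7.05%): Psmc6 (0.28, SE 0.06, adjusted p = 0.000637), Psmd1 (0.23, SE 0.06, adjusted p = 0.00363), Psma3 (0.16), Psmb7 (0.15) and Psmd12. Psmb5 did not pass in any of these 4 comparisons, with differences from -0.02 to 0.12. A test of whether the effect of feeding time differed between the diets called 2 members, Psma5 (0.23) and Psmd4 (-0.35), against 19.7% of all rows.

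The calls that involve high salt at night changed without the libraries of low scale factor. With those left out and times fitted as a cosine, 0 members passed between high salt day and night feeding (5.27% of all rows were higher and 1.82% lower), 0 between high and low salt at night (4.61% and 8.98%), and 0 in the test of the difference between diets (4.47%). The cosine fit with all libraries kept gave 1 higher and 3 lower, 9 higher, and 2. Day fed colon had no library of low scale factor, and for high against low salt by day both cosine fits gave 3 members in place of 5. High salt night fed libraries had up to 15.4% of their FPKM in ribosomal RNA rows (median 0.14%). Without the libraries of low scale factor Psmb6 was 0.24 and Psmd4 0.22 higher with high salt at night. Both values were smaller than those given above, and neither passed.

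A rhythm was tested as a 24 h cosine over the 6 time means; its amplitude is the distance from mean to peak on the log2 scale. Member amplitudes were small beside those of clock genes. Among the genotypes 3 of 34 were rhythmic in wild type colon (17.7% of all rows were), 1 with MR knock out (21.7%) and 16 with Bmal1 knock out (56.7%). Under night feeding 3 were rhythmic with low salt (22.6%) and 22 with high salt (57%), and under day feeding 13 with low salt (42.2%) and 6 with high salt (31.6%). The median amplitude of the members ran from 0.08 in low salt night fed to 0.16 in high salt night fed colon and was below the median of all rows in each of the 7 conditions. For comparison, the clock gene Nr1d1 had an amplitude of 2.63 in wild type colon, against 0.36 in the Bmal1 knock out. Rhythms were found in 0 conditions for 4 members, in 1 for 10, in 2 for 13 and in 3 for 3; Psmb3 and Psmb6 were rhythmic in 4, Psmd11 in 5 and Psmd5 in 6 of 7 conditions.

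**Figure D3:**
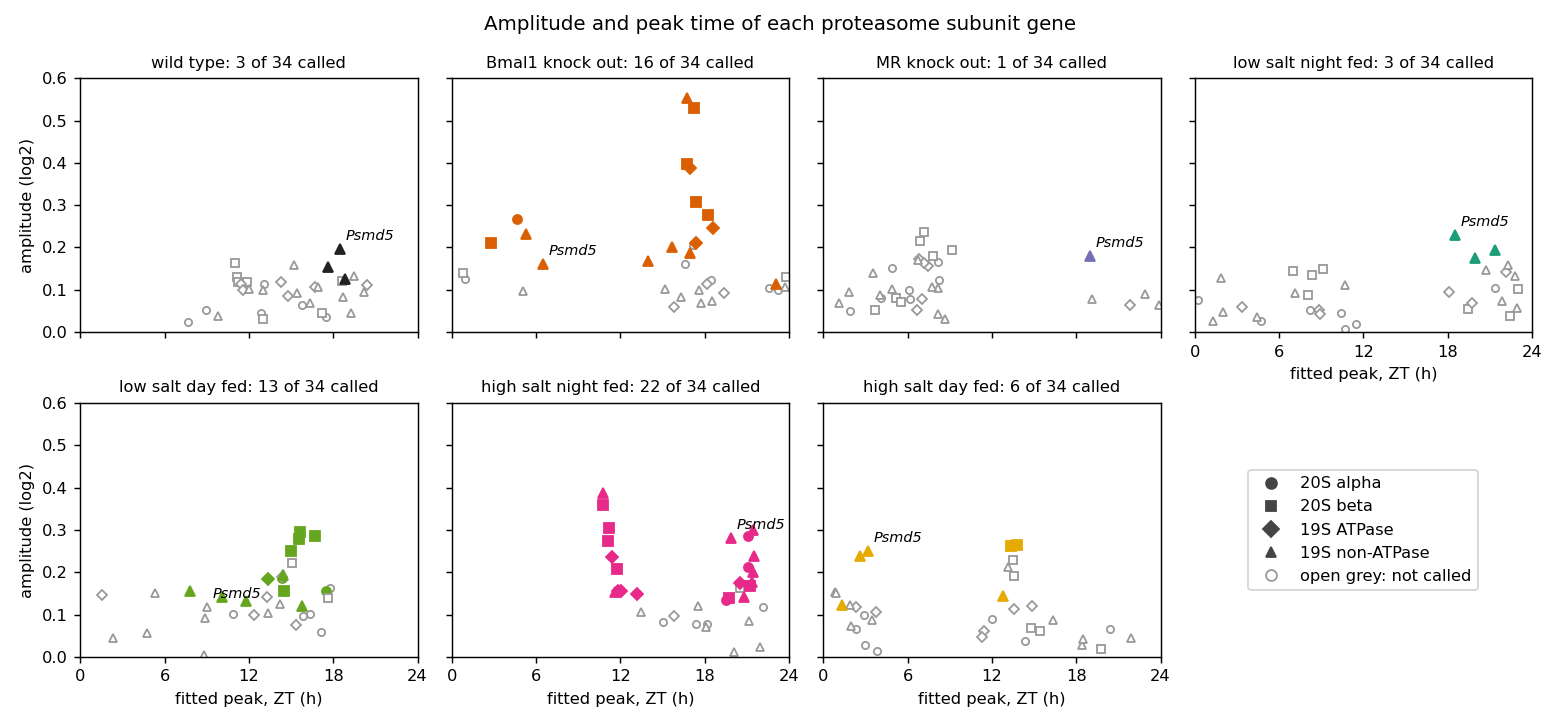
Amplitude (log2) against peak time (ZT, hours) of each gene's fitted 24 h rhythm in the 7 conditions, with rhythmic genes marked apart from the others. Psmd5 is labelled: its peak lies between ZT18.5 and ZT19.9 in wild type, MR knock out and both night fed conditions and elsewhere in the other 3.

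In wild type colon the members moved together by small steps. At ZT16 all 34 lay above their own mean over the day, with a median of 0.15, and at ZT4 0 of 34 did, with a median of -0.07. The medians of all tested rows at these times were -0.04 and 0.02. Length score moved with the members over single wild type libraries: the pair with the members' highest median deviations (0.36 and 0.21) had the lowest scores (-0.17 and 0.08), and the 4 with the lowest (-0.19, -0.18, -0.15 and -0.14) had scores of 0.28, 0.32, 0.28 and 0.29. The part of the score in these steps was not tested. In low salt day fed colon 1 of 34 lay above its mean at ZT0 (median -0.19), and in high salt night fed colon 32 did at ZT16 (median 0.14). In low salt night fed colon 32 did at ZT4 (median 0.14) and 3 at ZT8. The medians of all tested rows were 0.06, -0.03 and -0.03 at ZT0, ZT16 and ZT4 of these conditions in turn. The low salt night fed libraries of ZT4 had median member deviations of 0.03, 0.07 and 0.27. Their length scores were 0.08, -0.11 and -0.19, and the part of the score was not tested here either. Taking single libraries, 46 over the 7 conditions had at least 28 or at most 6 members above their condition's median. Of these, 10 were among the 18 wild type libraries, the library of ZT8 that stands apart included. No such count was made for other genes, so it describes the members alone. Without that library of ZT8, 1 member, Psmd5, was rhythmic in wild type colon in place of 3.

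**Figure D4:**
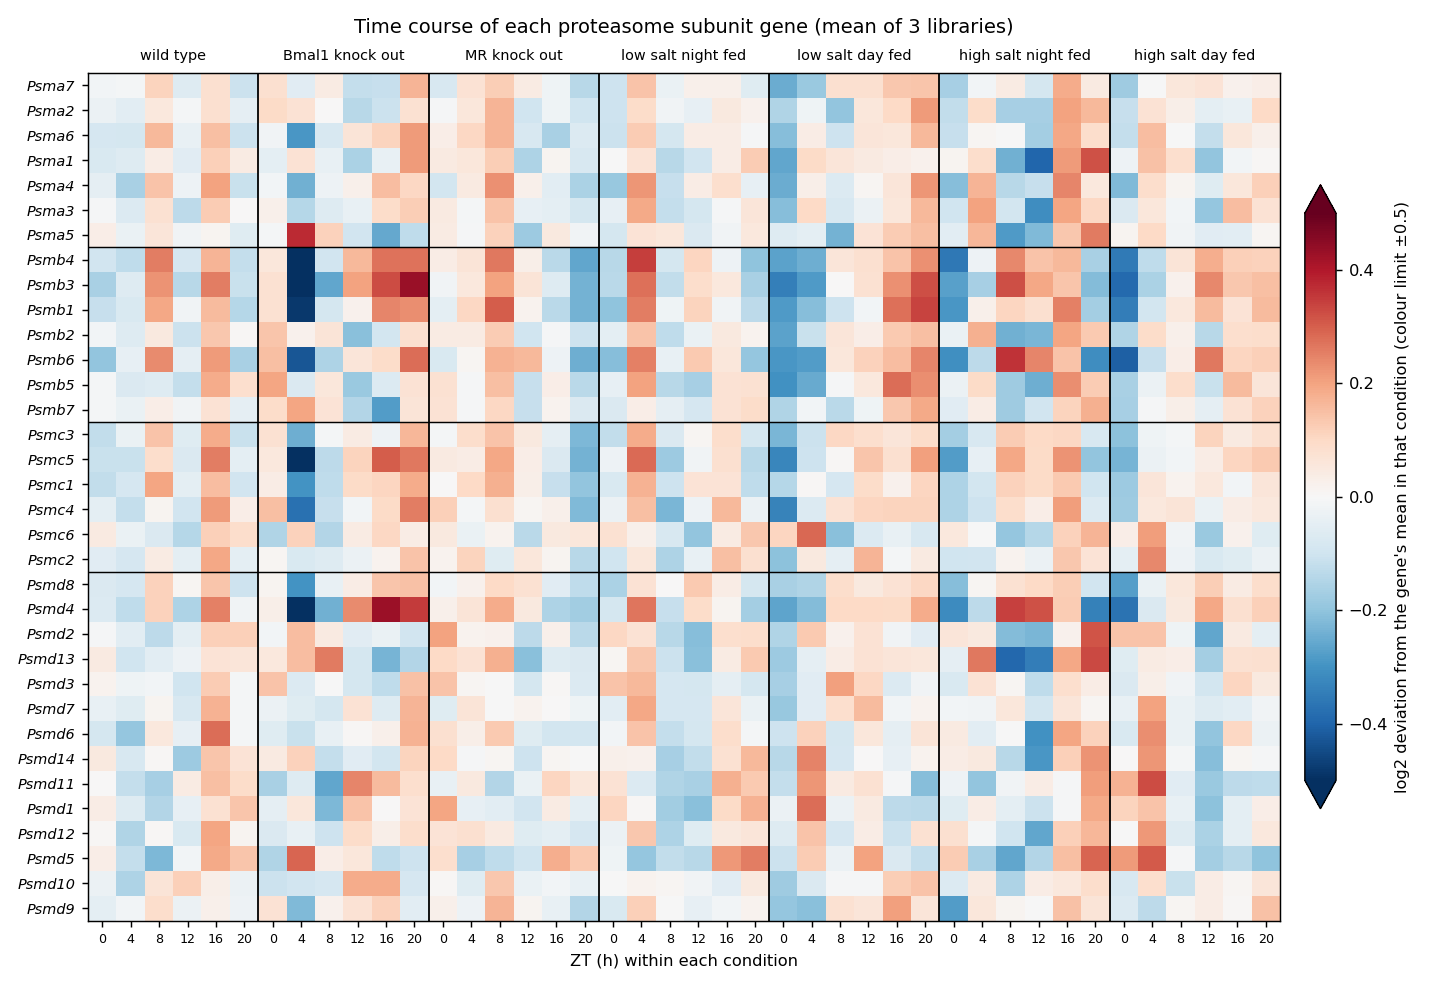
Deviation of each gene from its own mean over the day (log2 colour scale) at 6 zeitgeber times in 7 conditions, genes grouped by class. In wild type colon all 34 genes lie above their mean at ZT16 and 0 at ZT4; in Bmal1 knock out and high salt night fed colon the genes differ in direction at the same time.

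Psmd5 (chr2:34849734-34874968, minus strand) showed the most frequent rhythm, and its peak time differed between feeding times. It encodes an assembly chaperone of the 19S base, and its transcript of 4397 bases is the longest of the members. In wild type colon its 3 libraries read 13.98, 13.9 and 13.1 FPKM at ZT8 and 16.5, 19.1 and 19.7 at ZT16. The libraries of these times did not overlap, and those of ZT20 (19.1, 16.6 and 17.6) were also above ZT8. Its amplitude was 0.20 with a peak at ZT18.5 (SE 0.8 h, adjusted p = 0.00135). In MR knock out colon the amplitude was 0.18 and the peak ZT19.0 (adjusted p = 0.00437).

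Night feeding gave Psmd5 a like profile. In low salt night fed colon it read 12.8, 12.3 and 12.5 FPKM at ZT4 and 17.4, 18.1 and 16.2 at ZT20 (amplitude 0.23, peak ZT18.5, adjusted p = 0.000573). In high salt night fed colon it read 10.8, 12.6 and 11.1 FPKM at ZT8 and 16.6, 16.8 and 17.8 at ZT20 (amplitude 0.28, peak ZT19.9, adjusted p = 6.73e-06; without the libraries of low scale factor 0.26, adjusted p = 0.0219). Under day feeding the profile was turned. In high salt day fed colon Psmd5 read 17.7, 17.2 and 18.4 FPKM at ZT4 and 11.9, 11.5 and 13.7 at ZT20 (amplitude 0.25, peak ZT3.2, adjusted p = 0.000247). In low salt day fed colon its highest time was ZT12 (17.7, 15.3 and 15.8 FPKM), and the rhythm did not pass (amplitude 0.12, peak ZT9.0, adjusted p = 0.0753).

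The rhythm of Psmd5 differed between day and night feeding with high salt (length of the difference between the cosine vectors 0.43, SE 0.06, adjusted p = 3.31e-06) and with low salt (0.33, adjusted p = 0.000359). Both differences also passed without the libraries of low scale factor (adjusted p = 6.92e-05 and 0.000923). With low salt on FPKM as deposited the difference did not pass (adjusted p = 0.332), nor did the rhythm in wild type, MR knock out and low salt night fed colon. With each replicate number left out in turn, both of these differences passed each time, as did the rhythm in either night fed condition. The rhythm in wild type colon did not pass without number 2 (adjusted p = 0.091), that in high salt day fed colon without number 1 (0.104), that in MR knock out colon without number 2 (0.137) or 3 (0.0792), and that in Bmal1 knock out colon without number 1 (0.106) or 2 (0.291). Psmd5 also differed between the day fed diets (0.27, adjusted p = 0.00828). In Bmal1 knock out colon it read 18.4, 18.9 and 16.0 FPKM at ZT4 and 12.7, 12.9 and 13.9 at ZT16, the reverse of wild type colon (peak ZT6.5, amplitude 0.16, adjusted p = 0.00371). Its rhythm differed from wild type by 0.36 (SE 0.06, adjusted p = 0.000128), and by 0.49 without the libraries of low scale factor (adjusted p = 0.00834); without replicate number 2 the adjusted p was 0.0667. Length score moved with the level of Psmd5 in some conditions: in Bmal1 knock out libraries it was 0.14, 0.13 and 0.03 at ZT4 and -0.14, -0.18 and -0.22 at ZT16, and in high salt night fed libraries -0.16, -0.08 and -0.19 at ZT8 and 0.01, 0.10 and -0.01 at ZT20. With the score as a covariate the rhythm of Psmd5 passed in all 7 conditions, among them wild type (amplitude 0.19, adjusted p = 0.000298), low salt night fed (0.20, adjusted p = 0.000172), high salt night fed (0.23, adjusted p = 7.69e-06), high salt day fed (0.17, adjusted p = 0.00297) and Bmal1 knock out colon (0.12, adjusted p = 0.0396). The day against night differences passed in that fit too (adjusted p = 1.08e-06 with high and 0.00319 with low salt). As background for the phase of the clock, Nr1d1 peaked at ZT8.8 in wild type, ZT9.6 in low salt night fed, ZT23.8 in low salt day fed and ZT15.7 in high salt day fed colon.

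**Figure D5:**
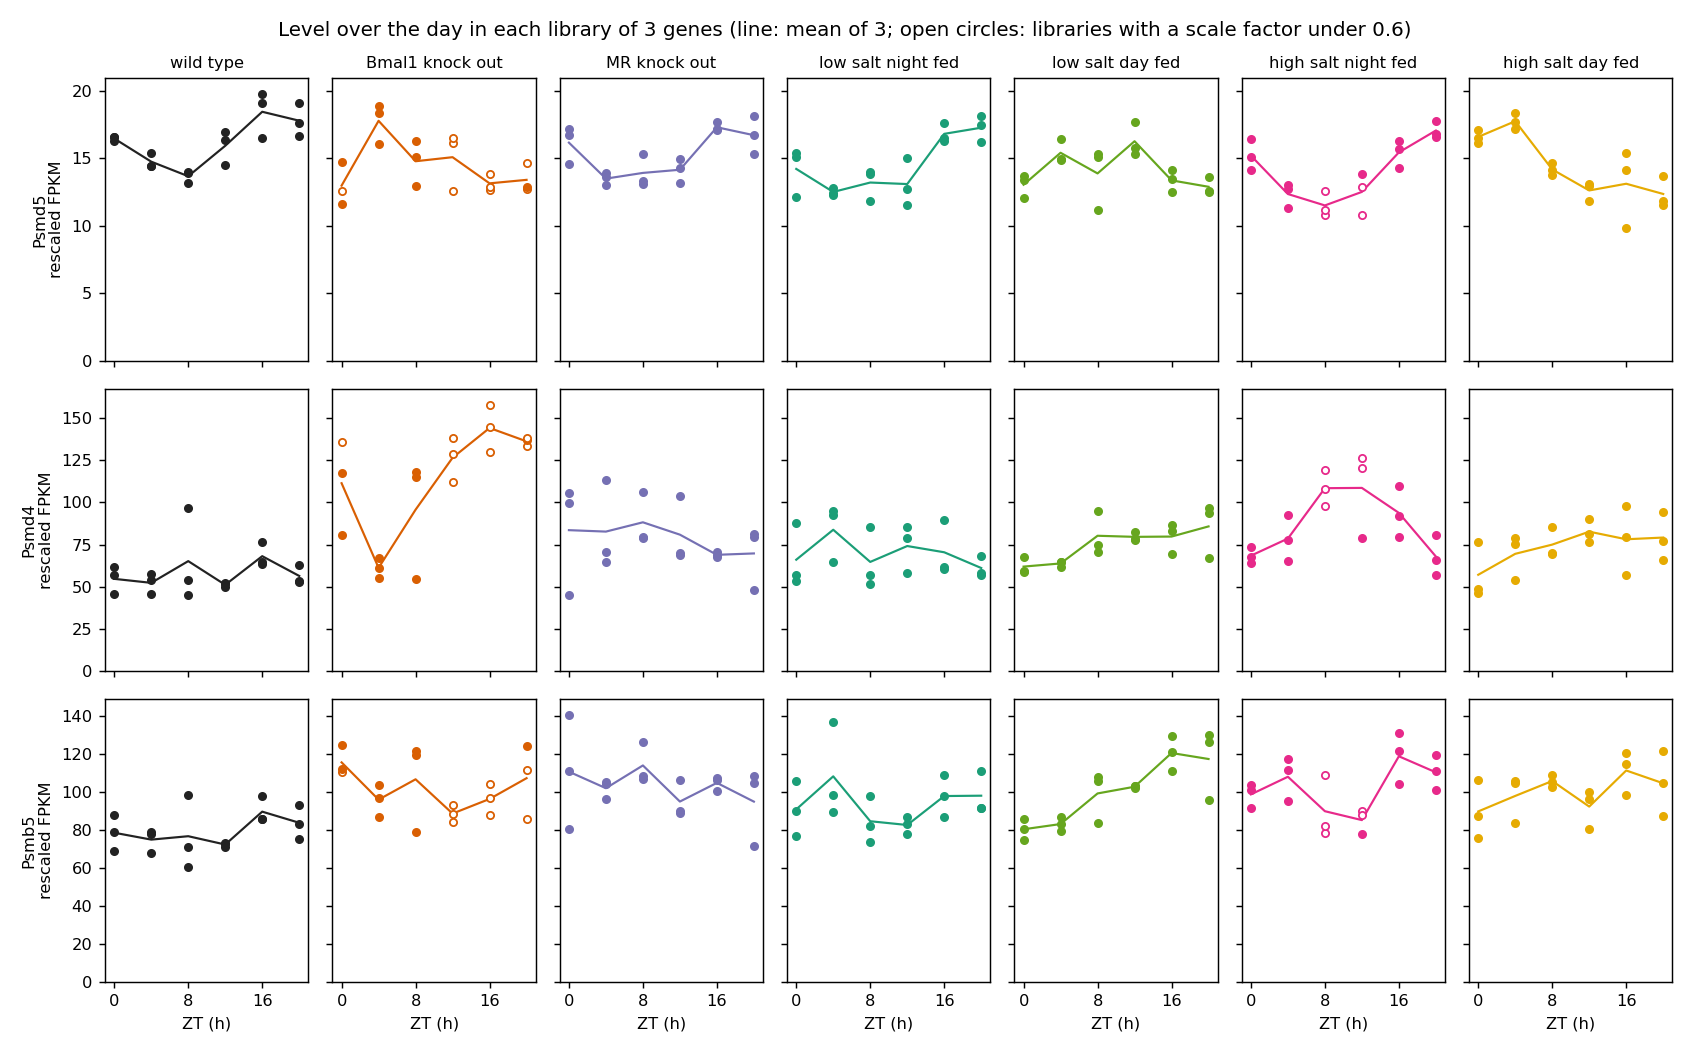
Level (rescaled FPKM) of Psmd5, Psmd4 and Psmb5 in each library against zeitgeber time in the 7 conditions; points are libraries, open points are libraries with a scale factor under 0.6, and lines join the means of 3. Psmd5 is high at ZT16 to ZT20 in wild type and night fed colon and at ZT4 in high salt day fed and Bmal1 knock out colon.

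Psmd11, a scaffold subunit of the lid, was the next most frequent. It peaked at ZT17.6 in wild type (amplitude 0.15, adjusted p = 0.0199), ZT19.9 in low salt night fed (0.17, adjusted p = 0.0247), ZT7.8 in low salt day fed (0.16, adjusted p = 0.0312), ZT2.6 in high salt day fed (0.24, adjusted p = 0.00152) and ZT15.6 in Bmal1 knock out colon (0.20, adjusted p = 0.000509). Its rhythm differed between day and night feeding with low salt (0.33, adjusted p = 0.00141) and with high salt (0.34, adjusted p = 0.000947). Without the libraries of low scale factor its amplitude in Bmal1 knock out colon was 0.05. In wild type colon the rhythm of Psmd11 did not pass without the library of ZT8 that stands apart.

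Psmd4 (chr3:95032694-95042614, minus strand) had the largest amplitude of any member, 0.55 in Bmal1 knock out colon, with a peak at ZT16.8 (SE 0.8 h, adjusted p = 0.000348). There its 3 libraries read 61.2, 55.3 and 67.3 FPKM at ZT4 and 130, 145 and 158 at ZT16, a ratio of the means of 2.35. The libraries at ZT4 lay below those at ZT12, ZT16 and ZT20, while at ZT8 they read 115, 54.4 and 118. In wild type colon it read 44.9, 54.1 and 96.8 FPKM at ZT8, the last in the library that stands apart, and 76.4, 64.7 and 63.5 at ZT16 (amplitude 0.09, adjusted p = 0.848). The difference in rhythm from wild type was 0.47 and did not pass (adjusted p = 0.0516). In high salt night fed colon Psmd4 read 108, 97.8 and 119 FPKM at ZT8 and 80.9, 56.9 and 66.2 at ZT20 (amplitude 0.39, peak ZT10.8, adjusted p = 0.000698). All 3 libraries of ZT16 in Bmal1 knock out and of ZT8 in high salt night fed colon had a low scale factor. Neither rhythm of Psmd4 passed without the libraries of low scale factor: the amplitudes were 0.81 (SE 0.22, adjusted p = 0.0755) and 0.24 (SE 0.12, adjusted p = 0.36). The 0.81 comes from a cosine with no Bmal1 knock out library at ZT12 or ZT16. With all libraries and the length score as a covariate the amplitudes were 0.24 (adjusted p = 1.85e-06) and 0.14 (adjusted p = 0.00348).

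In Bmal1 knock out and in high salt night fed colon the rhythmic members fell into groups by peak. Of the 16 in Bmal1 knock out colon, 11 peaked between ZT13.96 and ZT18.6: Psmb1, Psmb3, Psmb4, Psmb6, Psmc1, Psmc4, Psmc5, Psmd4, Psmd8, Psmd10 and Psmd11. The other 5 were Psma5 (amplitude 0.27, peak ZT4.6, adjusted p = 8.55e-05), Psmb7 (0.21, peak ZT2.8, adjusted p = 0.00213), Psmd13, Psmd5 and Psmd3. In high salt night fed colon 10 of the 22 peaked between ZT10.8 and ZT13.2, and 12 between ZT19.5 and ZT21.5. The first group held Psmb6 (amplitude 0.36, peak ZT10.8, adjusted p = 0.000646) and Psmc5 (0.24, peak ZT11.4, adjusted p = 0.0104). The second held Psma1 (0.29, peak ZT21.1, adjusted p = 9.64e-06), Psmb7 (0.14, peak ZT19.7, adjusted p = 0.0476) and Psmd13 (0.30, peak ZT21.4, adjusted p = 5.78e-05). The group of 11 and the group of 10, in conditions that share no libraries, had 9 genes in common, 81.8% of the one and 90% of the other. These groups were formed after the peaks were seen and were not tested. The like overlap was not counted for other genes, so it describes the members alone.

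Scale factor and transcript length moved with these peaks. The peak times of the first groups lay among or next to times with libraries of low scale factor, ZT12 to ZT20 in Bmal1 knock out colon, which also had 1 such library at ZT0, and ZT8 to ZT12 in high salt night fed colon. The median transcript was 1430 and 1386 bases long in the groups of 11 and 10, and 1989 and 1722 in the other groups. Without those libraries 0 members were rhythmic in Bmal1 knock out colon (6.63% of all rows were) and 1, Psmd5, in high salt night fed colon (7.61%). The cosine fit with all libraries kept gave 16 (55.2%) and 18 (53.9%). The first of these fits had no library at ZT12 or ZT16 in Bmal1 knock out colon.

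In low salt day fed colon, with no library of low scale factor, the 13 rhythmic members peaked between ZT7.8 and ZT17.5. With each replicate number left out in turn, 1, 2 and 5 members passed (18.3%, 7.64% and 20% of all rows). Length scores there were 0.11, 0.14 and 0.07 at ZT0 and -0.23, -0.05 and -0.25 at ZT20, and with the score as a covariate 12 members passed (25.4% of all rows). Psmb5 (chr14:54614119-54618022, minus strand), whose promoter window is printed above, read 74.8, 85.7 and 80.2 FPKM at ZT0, 79.1, 83.3 and 86.6 at ZT4, 106, 83.4 and 108 at ZT8, 103, 102 and 103 at ZT12, 121, 129 and 111 at ZT16, and 125.95, 95.8 and 130 at ZT20. The libraries of ZT0 and ZT16 did not overlap. The amplitude was 0.28 with a peak at ZT15.5 (SE 0.8 h, adjusted p = 0.00175). Its transcript is short, at 899 bases; with the length score as a covariate the amplitude was 0.12 and did not pass (adjusted p = 0.0993), nor did it without replicate number 1 (0.25, adjusted p = 0.0539). In low salt night fed colon it read 89.8, 106 and 76.6 FPKM at ZT0 and 86.5, 97.9 and 109 at ZT16, which overlapped (amplitude 0.10, adjusted p = 0.377). The rhythm of Psmb5 differed between these groups by 0.33 (SE 0.08, adjusted p = 0.00644). In wild type colon it read 77.8, 79.0 and 67.6 FPKM at ZT4 and 97.5, 85.5 and 85.5 at ZT16, and the rhythm did not pass (amplitude 0.12, adjusted p = 0.452). Psmb6 had an amplitude of 0.25 with low salt by day (peak ZT15.0, adjusted p = 0.0289) and 0.26 with high salt by day (peak ZT13.3, adjusted p = 0.0278). Psmb7 did not pass in either (adjusted p = 0.0601 and 0.555).

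Tests of the difference between rhythms gave fewer calls. Between Bmal1 knock out and wild type colon 6 members differed (31.2% of all rows did): Psmd5, Psmd13 (0.31, adjusted p = 0.00605), Psmd2 (0.22, adjusted p = 0.00794), Psma5 (0.25, adjusted p = 0.0145), Psmb7 (0.24, adjusted p = 0.0275) and Psmb3 (0.52, adjusted p = 0.0397). Without the libraries of low scale factor 1 did (2.45% of all rows). Between MR knock out and wild type colon limma called 0, with 4 at an unadjusted p under 0.05 (0.835% of all rows). Day against night feeding gave 11 with low salt (38.6%), among them Psmb1 (0.38, adjusted p = 0.00839), Psma1 (0.20, adjusted p = 0.0374) and Psma7 (0.20, adjusted p = 0.0284). It gave 5 with high salt (32.5%), Psmd5, Psmd11, Psma1 (0.30, adjusted p = 0.00181), Psmc2 (0.20, adjusted p = 0.00723) and Psmd13. High against low salt gave 0 at night, with 4 at an unadjusted p under 0.05 (12.3%), and 4 by day (11.3%), Psmd5, Psmd11 (adjusted p = 0.0333), Psmd7 (adjusted p = 0.0222) and Psmc2 (adjusted p = 0.0347). The effect of feeding time on rhythm differed between the diets for 0 members by limma, with 10 at an unadjusted p under 0.05 (6.21% of all rows).

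Other genes of the pathway moved differently from one another in the knock outs. The 3 immunoproteasome genes, which replace the catalytic subunits on interferon signalling, were higher in both (31.1% and 24.7% of all rows were). Psmb8 rose by 1.85 (19.7 ± 6.33 to 74.1 ± 27.9 FPKM, adjusted p = 1.91e-10) in Bmal1 knock out colon and by 1.80 (adjusted p = 1.25e-09) in MR knock out colon. With the length score as a covariate in limma, Psmb8 rose by 0.76 (adjusted p = 0.00393) and 1.15 (adjusted p = 7.05e-07). All 5 tested genes of core assembly chaperones were higher in Bmal1 knock out colon (31.1% of all rows), among them Psmg4 (1.04, adjusted p = 1.35e-09) and Pomp (0.92, adjusted p = 1.26e-10), and 4 of 5 in MR knock out colon (24.7%). Of 5 activator and inhibitor genes, Psme1 (1.10) and Psme2 (0.99) were higher and Psme4 (-0.24) lower in Bmal1 knock out colon (31.1% and 49.2% of all rows). Of 9 genes around NRF1, 1 was higher and 8 lower in Bmal1 knock out colon (31.1% and 49.2% of all rows). In MR knock out colon 1 was higher and 6 lower (24.7% and 41.3%). Nfe2l1, which encodes NRF1, fell by 0.65 (31.7 ± 3.58 to 20.5 ± 5.25 FPKM, adjusted p = 4.22e-11) in Bmal1 knock out and by 0.19 (adjusted p = 0.0112) in MR knock out colon. With the length score as a covariate its Bmal1 knock out difference was -0.26 (limma, adjusted p = 0.00034). Its MR knock out difference was then 0.04, of the other sign, and did not pass (adjusted p = 0.451). Values of the remaining genes in this paragraph are without that covariate. Nfe2l2, which encodes NRF2, fell by 0.95 (adjusted p = 8.09e-09) and 0.47 (adjusted p = 0.00102). Of 9 tested targets of NRF2, 2 were higher and 5 lower in Bmal1 knock out colon, shares near the 31.1% and 49.2% of all rows, with Gclc at -1.07. Interferon genes were higher for 9 of 10 in Bmal1 knock out (31.1% of all rows) and 10 of 10 in MR knock out colon (24.7%). The summed level of the leukocyte list had a median of 5.80 FPKM in MR knock out, 3.25 in Bmal1 knock out and 3.23 in wild type libraries, and its part in these results was not tested.

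The effect of feeding time on level differed between the diets for Psmb8 (1.504) and Psmb9 (1.328, limma, adjusted p = 8.63e-10). It did not for the immunoproteasome gene Psmb10 (0.169, adjusted p = 0.358). It differed for 2 of the 34 constitutive genes and for 19.7% of all rows. The genes of the interferon list all differed too, from Irf1 (0.503) to Isg15 (3.54), so the pattern was not confined to immunoproteasome genes. Its cause was not tested. With high salt Psmb8 was higher by day than at night (67.1 ± 13.5 against 31.9 ± 11.9 FPKM, 1.13, adjusted p = 2.75e-10). At night it was lower with high than with low salt (-0.87, adjusted p = 3.04e-07). Without the libraries of low scale factor these were 1.23 (adjusted p = 5.88e-08) and -0.97 (adjusted p = 1.56e-05). By day Psmb8 was higher with high than with low salt (0.64, adjusted p = 0.000153). Between day and night feeding with low salt it did not pass (-0.38, adjusted p = 0.0743). Nfe2l1 was lower with high than with low salt at night (-0.36, SE 0.05, adjusted p = 1.69e-08) and higher with high salt by day than with high salt at night (0.26, SE 0.05, adjusted p = 1.79e-05). Its rhythm passed in high salt night fed colon (amplitude 0.34, peak ZT23.8, adjusted p = 2.48e-07) and not in wild type colon (0.13, adjusted p = 0.354). Its values with high salt at night, with the libraries of low scale factor left out, were -0.35 for level (adjusted p = 7.17e-06) and 0.31 for amplitude (adjusted p = 0.00194). Chaperone genes gave a reference for protein folding. In wild type colon 11 of 12 endoplasmic reticulum folding genes and 8 of 11 heat shock protein genes were rhythmic (17.7% of all rows were). Among them were Hyou1 (amplitude 0.82, adjusted p = 0.00121) and Hsph1 (1.47, adjusted p = 5.06e-08).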

How the data were processed

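Each condition has its own deposited table, with 18 library columns and 24883 rows. Per the labels, poly(A) RNA was prepared with the Illumina TruSeq stranded mRNA kit; per the submitters' processing notes, the tools were TopHat2 2.1.1 and Cufflinks 2.2.1 with build mm10. The authors deposited FPKM values, a unit read from Cufflinks and the values; annotation, options, sequencing depth, and whether the 7 tables were scaled together are not stated in the sources used here. Level comparisons therefore cross tables.

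FPKM was divided by median-of-ratios factors and analysed as log2(FPKM + 0.5) for 11377 rows with a mean of at least 1 in at least 1 condition. limma 3.58.1 in R 4.3.3 (trend and robust options) was fitted to 54 genotype libraries (36 residual degrees of freedom) and to 72 feeding libraries (48), with 1 mean per condition and time, giving level, rhythm and difference tests adjusted over all rows (Benjamini-Hochberg, 0.05). The code was tested on simulated data. Coordinates are from GENCODE vM21. Psmd5, Psmd9 and Psmd10 carry 19S assembly chaperones matched by name.

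Members and gene lists were chosen with earlier results of these data known. Named genes are the member of smallest adjusted p in each class and Psmb5, Psmb6 and Psmb7 per comparison, the extremes, and up to 4 genes of other lists with Nfe2l1 and Nfe2l2; libraries are given for Psmb5 and Psmd4. Psmd5, Psmd11 and other members beyond these were chosen after their values were seen. Replicates are separate libraries, not stated to be separate animals for every group, so p-values measure the spread between these samples. Alternatives were another pseudocount (0.1), no filter, FPKM as deposited, quantile normalization, a length score covariate, a replicate block, and libraries left out.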

Additional observations from a re-analysis of the deposited data

Results flagged for a closer look

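The effect of feeding time on level differed between the salt diets for 2 members by the interaction test. For Psma5, a gene of the alpha ring, the day minus night difference was larger with high salt than with low salt by 0.2334 (log2; SE 0.08, adjusted p = 0.034, limma). For Psmd4, the ubiquitin receptor gene of the 19S cap, it was lower with high salt by -0.353 (SE 0.12, adjusted p = 0.0332). Neither passed when the libraries of low scale factor were left out, which in the feeding groups are 5 of high salt night fed colon.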

How the results depend on the processing

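Alternatives changed counts of members, out of 34. Where no share of all rows is given, a count describes the members alone and does not show whether they differ from other genes. A pseudocount of 0.1 moved none of the 27 counts beyond 1.5 times. On FPKM as deposited, the counts became, for members higher, 0 and 6 in the Bmal1 and MR knock outs, 34 in high salt day against night, and 0 in high against low salt at night and by day; for members lower, 27 in Bmal1 knock out, 0 in high salt day against night and 34 in high against low salt at night. Of all rows, 87.3% were then higher in high salt day against night and 87.2% lower in high against low salt at night. Rhythmic members were then 0 in wild type, 34 and 0 with Bmal1 and MR knock out, 34 and 11 with high salt at night and by day, and 0 with low salt at night, against 3.3%, 95.3%, 8.27%, 91.2%, 42.6% and 9.1% of all rows in the same order. Rhythm differences were 34 for Bmal1 knock out, 34 and 4 for day against night with high and low salt, and 34 and 23 for high against low salt at night and by day, and the interactions 31 for level and 32 for rhythm. The shares of all rows were 87.1%, 86.7% and 18.5%, 84.2% and 25.9%, and 73.9% and 62.7%. As deposited, the Bmal1 knock out difference reversed to -0.16 for Psma4, -0.000827 for Psmc5, -0.54 for Psmb5, -0.081 for Psmb6 and -0.68 for Psmb7, the MR knock out difference to -0.033 for Psmb7, high salt day against night to 0.24 for Psmb1 and 0.32 for Psmd8, and high against low salt at night to -0.19 for Psmb6, -0.27 for Psmc5 and -0.18 for Psmd4.

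With the length score as a covariate, higher members were 13 and 7 in the Bmal1 and MR knock outs, 6 in high salt and 2 in low salt day against night, and 12 in high against low salt by day. Lower members were 0, 1 and 3 in Bmal1 knock out and in high and low salt day against night. Rhythmic members were 10 in wild type, 5 with MR knock out and 8 with low salt at night (37.5%, 32.4% and 37% of all rows). Rhythm differences were 14 for Bmal1 knock out, 12 for high salt day against night, and 10 and 2 for high against low salt by day and at night, with interactions of 1 for level and 9 for rhythm. Psmb5 reversed to -0.074 in Bmal1 knock out. Without a filter on low values 3 members were higher with high than low salt by day. Quantile normalization gave 10 and 17 rhythm differences for Bmal1 knock out and low salt day against night, 4 and 1 higher with high and low salt day against night, 2 lower in Bmal1 knock out, 6 rhythmic in low salt night and 6 level interactions. No share of all rows is given for these quantile counts. The same holds for the feeding levels, rhythm differences and interactions of the length score fit.

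Other alternatives were chosen after seeing the data or left out libraries. Without the libraries of low scale factor, rhythmic members were 0 in Bmal1 knock out, 3 in high salt day and 1 in high salt night. Rhythm differences were 1, 3 and 2 for Bmal1 knock out, high salt day against night, and high against low salt by day. Levels gave 0 higher and 0 lower for high salt day against night, 0 and 3 higher for high against low salt at night and by day, and 0 level interactions. This fit also has fewer samples and another time model. The cosine fit with all libraries gave 1 rhythm difference and 3 higher members for high against low salt by day. Without the wild type library of ZT8 that stands apart, 1 member was rhythmic in wild type. The cause of these changes was not tested.

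Same-numbered replicates did not deviate together (mean correlation from -0.052 to 0.029 over pairs of times), so the numbers do not pair the samples. A replicate block moved the rhythm interaction from 0 to 1 and no other count.

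Leaving out each replicate number in turn gave rhythmic members of 0 to 2 in wild type, 3 to 24 and 0 to 1 with Bmal1 and MR knock out, 1 to 2 and 1 to 5 with low salt at night and by day, and 10 to 15 and 0 to 8 with high salt at night and by day. Higher members were 30 to 31 and 24 to 29 in the Bmal1 and MR knock outs, 0 to 1 in high salt day against night, 0 to 9 and 0 to 6 in high against low salt at night and by day. Lower members were 0 to 1 in MR knock out and 0 to 7 in high salt day against night. Rhythm differences were 0 to 4 for Bmal1 knock out, 3 to 6 and 1 to 5 for low and high salt day against night, and 0 to 2 for high against low salt by day. Level interactions were 0 to 8. No source used here gives the depth of a library, and counting error was not computed.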
